A study of Mus musculus with 10 samples.

Results

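The genes described here encode the kinases that phosphorylate the translation initiation factor eIF2alpha, the regulatory proteins that bring a phosphatase back to it, eIF2alpha itself and the transcription factor ATF4. The set has 8 listed genes: Ppp1r15a, Ppp1r15b, Eif2ak1, Eif2ak2, Eif2ak3, Eif2ak4, Eif2s1 and Atf4. Its measurements are the probe sets that the platform annotation gives to exactly 1 gene, that gene being one of the 8, which made 19 of the 45101 probe sets on the array and covered 7 of the 18193 genes with such a probe set. Eif2s1, the gene of eIF2alpha, was not analysed here because no probe set was listed for it alone. The set was chosen because Ppp1r15b stood higher in the spindle-chromosome complex, so for Ppp1r15b the levels in that complex are given as a description, with no test.

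The study asked whether maternal transcripts are concentrated at the spindle of the mouse oocyte. All 10 arrays came from oocytes of female B6D2F1 mice, that had matured in the animal and paused in the second meiotic metaphase (MII). The mice had received eCG and, 48 h later, 5 IU of hCG, which are gonadotropins that bring oocytes to ovulation, and 16 h after that the cumulus cells were stripped with hyaluronidase. The 3 groups were spindle-chromosome complexes cut out by microsurgery (SCC, replicates 1 to 3), the cytoplasts left after that removal (replicates 1 to 4) and intact MII oocytes (replicates 2 to 4). An SCC also carries the cytoplasm around the spindle, and a cytoplast is the rest of the same kind of cell, so the comparison is between parts of a cell and not between treatments. The labels name the arrays as biological replicates without saying how many oocytes or mice each holds, so the p-values cover the spread among arrays, which may be partly technical.

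Cells slow general translation by phosphorylating eIF2alpha, which blocks the exchange factor eIF2B and leaves less eIF2 able to carry the initiator tRNA. Each of the 4 kinases answers to its own signal: Eif2ak1 (HRI) to lack of heme, Eif2ak2 (PKR) to double-stranded RNA, Eif2ak3 (PERK) to unfolded protein in the endoplasmic reticulum (ER) and Eif2ak4 (GCN2) to lack of amino acids. Ppp1r15a (GADD34, induced by stress) and Ppp1r15b (CReP, made at all times) hold protein phosphatase 1 on eIF2alpha and so reverse the mark, while Atf4 mRNA is translated better when eIF2alpha is phosphorylated. An oocyte at MII hardly transcribes and works from stored mRNA. These arrays measured mRNA, not the phosphorylation of eIF2alpha.

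Values are hybridisation intensities on a linear scale, as relative amounts within an array. Every array received the same mass of amplified cRNA, so more molecules of a transcript and fewer of the others cannot be told apart. The median intensity of an array was 15.6 to 16.6. The 95th percentile over all its probe sets was 623 to 797 on SCC arrays, 526 to 634 on cytoplast arrays and 568 to 711 on MII oocyte arrays. Bright probe sets thus tended to read higher on SCC than on cytoplast arrays. Refits after cyclic loess and quantile normalization are given below. Precision is limited by how few arrays there are. A value was taken as above background where it exceeded the 95th percentile of 24 genes of other tissues on the same array, a level of 97.2 to 190.2. A few of the brightest of these genes set that level. Of the 24, 4 exceeded it on some array, and Lpl on all 10, so a value below it is not shown to be absent. Of 14 measured oocyte markers, 11 were above background on all 10 arrays, whereas of 11 measured cumulus and granulosa cell markers 10 were above it on none, the exception being Kitl. Summed over these 11, SCC arrays held 460.5 to 551, cytoplast arrays 469.8 to 482 and MII oocyte arrays 455 to 502, ranges that overlap. Kitl alone read 113 to 193 on SCC arrays, 63.4 to 123 on cytoplast arrays and 67.7 to 133 on MII oocyte arrays. It was above background on 2 of 3, 1 of 4 and 1 of 3 of these, so it leaned towards the SCC. The 3′ minus 5′ difference of the beta-actin control probe sets, a measure of RNA integrity and amplification, was 3.27 to 3.65 (log2) on SCC arrays against 3.66 to 5.29 on cytoplast arrays (two-sided exact permutation test, p = 0.0571, n = 3 and 4), and its part in the differences below was not tested.

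Ppp1r15b was brightest in the SCC. Its probe set 1426798_a_at read 223, 291 and 407 on SCC replicates 1, 2 and 3. On cytoplast replicates 1 to 4 it read 79.5, 52.1, 60.3 and 153. On MII oocyte replicates 2, 3 and 4 it read 58.3, 143 and 197. All SCC arrays lay above all others, while cytoplast replicates 1, 3 and 4 fell within the range of the MII oocyte arrays. The group means were 307 ± 92.9 (SD, n = 3) in the SCC, 132.7 ± 69.8 (n = 3) in the MII oocyte and 86.3 ± 46.2 (n = 4) in the cytoplast. On the log2 scale the SCC stood 1.92 above the cytoplast (3.78-fold) and 1.34 above the MII oocyte (2.52-fold). It was above background on 3 of 3 SCC arrays, 1 of 4 cytoplast arrays and 2 of 3 MII oocyte arrays.

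Cytoplast and MII oocyte, a contrast that the choice of Ppp1r15b did not use, did not differ past the threshold (log2 -0.58, 95% interval -1.52 to 0.35, adjusted p = 0.926), an interval that runs from 0.348 times to 1.28 times the level of the intact oocyte. A further probe set of Ppp1r15b, 1436366_at, read between 9.23 and 13.0 on all 10 arrays. It lay below the medians of the arrays, so the SCC pattern of Ppp1r15b comes from 1 probe set.

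Ppp1r15a, the stress-induced partner of Ppp1r15b, was dim in all groups. Its only probe set, 1448325_at, read 95.6, 93.5 and 156 on SCC replicates 1 to 3. It read 92.3, 78.4, 80.8 and 95.2 on cytoplast replicates 1 to 4, and 117, 74.9 and 118 on MII oocyte replicates 2 to 4. The groups overlapped, and SCC replicate 3 was the highest array. It exceeded background on 1 array of 10, an MII oocyte, so no fold is given. By limma no comparison passed: SCC and cytoplast had adjusted p = 0.362 (log2 0.37, 95% interval -0.08 to 0.83), SCC and MII oocyte 0.857, and cytoplast and MII oocyte 0.928. With the spike control level as a covariate the SCC passed over the cytoplast (log2 0.4, adjusted p = 0.0376). With a lower background level, set over all 89 probe sets of the same genes, 3 of 4 cytoplast, 2 of 3 SCC and all 3 MII oocyte arrays exceeded it. That level was chosen after seeing the data.

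**Figure D1:**
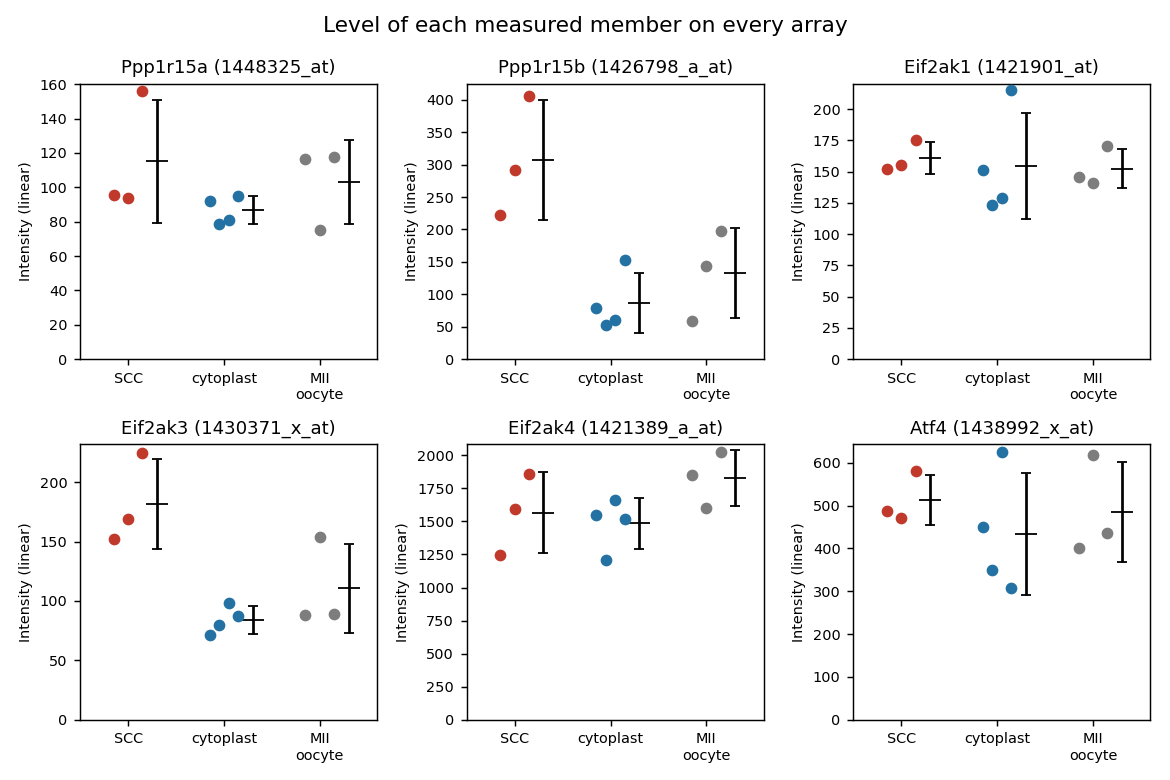
Intensity (linear scale, y axis from 0) of the 6 members with a probe set that passed the filter, 1 point per array, by group; black bars give the mean and SD. The 3 SCC arrays of Ppp1r15b sit between 223 and 407 and those of Eif2ak3 between 152 and 224, above every cytoplast array, while the other members overlap.

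Among the kinases, Eif2ak3 was the one that rose in the SCC. Its brightest probe set, 1430371_x_at, read 152, 169 and 224 on SCC replicates 1 to 3. On cytoplast replicates 1 to 4 it read 71.0, 79.9, 98.6 and 87.3. On MII oocyte replicates 2 to 4 it read 88.1, 154 and 89.2. The SCC and cytoplast arrays did not overlap, whereas MII oocyte replicate 3 reached the level of the SCC. The SCC mean was 182 ± 37.7 (SD, n = 3), the cytoplast mean 84.2 ± 11.7 (n = 4) and the MII oocyte mean 110.5 ± 37.9 (n = 3). The SCC stood 1.1 above the cytoplast on the log2 scale (SE 0.21, 95% interval 0.64 to 1.56, adjusted p = 0.0128). No cytoplast array exceeded background, so this is at least 1.6-fold, the SCC mean against the cytoplast with each array set to at least its background level. Under the lower background level 2 of 4 cytoplast arrays exceeded it and the measured ratio was 2.14-fold.

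A dimmer probe set of Eif2ak3 moved in the same direction. 1449278_at read 17.6, 19.5 and 17.3 on the SCC arrays, 13.3, 11.7, 14.04 and 12.01 on the cytoplast arrays and 12.9, 15.8 and 15.3 on the MII oocyte arrays. The SCC lay above every other array (log2 0.51 over the cytoplast, SE 0.12, adjusted p = 0.0268), but no array exceeded background, so no fold is given. This probe set passed the filter on dim probe sets only through the SCC. It exceeded the array median on every SCC array, on no cytoplast array and on MII oocyte replicate 3. Its call is therefore not read as support for the brightest probe set. The last, 1453505_a_at, read 10.2 to 14.97 and did not pass the filter on dim probe sets. The suffix x of the brightest probe set means that some of its probes can also match other transcripts.

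Against the intact oocyte the rise of Eif2ak3 did not pass. The SCC stood 0.75 above the MII oocyte (SE 0.23, adjusted p = 0.199), where 1 of 3 MII oocyte arrays exceeded background. Without that array, replicate 3, the log2 difference was 1.01 and passed (adjusted p = 0.0259), so whether it passes depends on 1 array. The cytoplast differed from the MII oocyte by -0.35 (95% interval -0.81 to 0.11, adjusted p = 0.926). The order of the means was SCC, MII oocyte, cytoplast for Eif2ak3 as for Ppp1r15b, and of the neighbouring pairs in that order neither passed for Eif2ak3.

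The call for Eif2ak3 over the cytoplast was also lost without SCC replicate 2 (log2 1.14, adjusted p = 0.0621), without SCC replicate 3 (log2 0.94, adjusted p = 0.078) and after quantile normalization (log2 0.92, adjusted p = 0.0537). The call for 1449278_at was lost without SCC replicate 2 or 3 and without cytoplast replicate 1 or 2 (adjusted p up to 0.131), and with the replicate number as a block (adjusted p = 0.0571). The spike controls added at hybridisation differed between arrays, and the ranges of the groups overlapped. Their mean log2 was 9.995 to 11.29 on SCC arrays, 9.906 to 11.18 on cytoplast arrays and 9.868 to 11.32 on MII oocyte arrays. The arrays were split into 4 brighter ones (SCC replicate 3, cytoplast replicate 4, MII oocyte replicates 2 and 4) and 6 dimmer ones. This split was made after seeing the data. For Eif2ak3 the SCC to cytoplast difference was 0.96 (log2) within the dimmer arrays (2 against 3) and 1.36 within the brighter ones (1 against 1), with every cytoplast array below background.

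**Figure D2:**
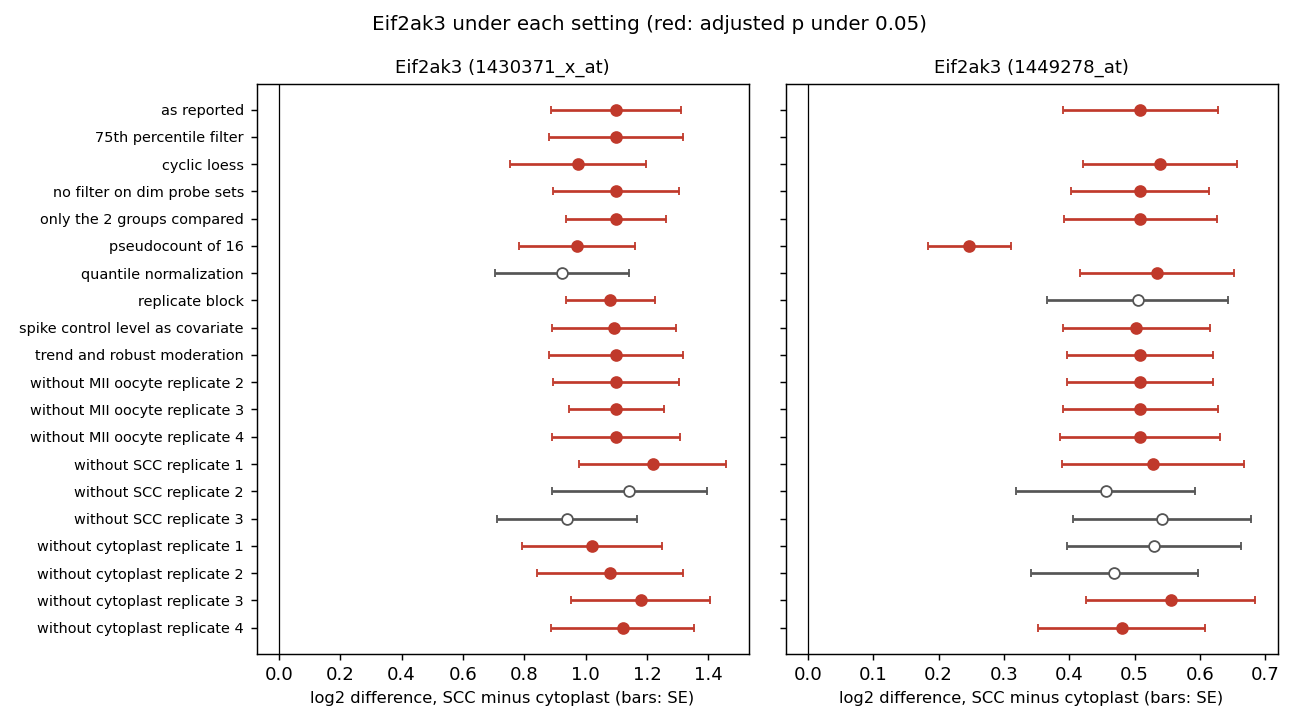
Log2 difference between SCC and cytoplast (x axis) for the 2 Eif2ak3 probe sets that passed the filter, under each processing setting and with each array left out (rows); bars are the SE, red marks an adjusted p under 0.05 and open grey points did not pass. For 1430371_x_at the differences run from 0.92 to 1.22, and the open points are quantile normalization and the fits without SCC replicate 2 or 3.

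Eif2ak4, the kinase that senses uncharged tRNA, was bright and showed no difference past the threshold between the groups. Its probe set 1421389_a_at read 1249, 1591 and 1856 on the SCC arrays. It read 1546, 1211, 1664 and 1519.7 on the cytoplast arrays and 1852, 1604 and 2027 on the MII oocyte arrays. The groups overlapped in each comparison. The SCC differed from the cytoplast by 0.07 on the log2 scale (95% interval -0.28 to 0.42, adjusted p = 0.876), which covers ratios from 0.821 to 1.34, and the sign turned after cyclic loess (-0.22) and quantile normalization (-0.22). Against the MII oocyte the SCC differed by -0.24 (adjusted p = 0.661) and the cytoplast by -0.3 (adjusted p = 0.926). Its other probe set, 1443235_at, read 6.96 to 9.36.

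Eif2ak1, the heme-regulated kinase, also showed no difference past the threshold. Probe set 1421901_at read 152, 155 and 176 on the SCC arrays. It read 151, 123, 129 and 215 on the cytoplast arrays and 146, 141 and 170.2 on the MII oocyte arrays. Cytoplast replicate 4 was the highest array and the groups overlapped (SCC over cytoplast log2 0.09, 95% interval -0.3 to 0.48, adjusted p = 0.841), with a negative sign after cyclic loess (-0.07) and quantile normalization (-0.11). Its companion 1421900_at read 90.95 to 134 on SCC arrays, 97.3 to 114 on cytoplast arrays and 73.7 to 105 on MII oocyte arrays. There the SCC stood 0.41 above the MII oocyte without passing (SE 0.18, 95% interval 0.03 to 0.8, adjusted p = 0.375). The other 3 probe sets of Eif2ak1 read 6.35 to 16.9 and did not pass the filter.

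No probe set of Eif2ak2, the kinase activated by double-stranded RNA, passed the filter. The 3 probe sets read 5.98 to 10.5 on all 10 arrays, below the median of each array, so Eif2ak2 was not detectable in any part of the oocyte on this platform and its groups were not compared.

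Atf4 showed no difference past the threshold between the parts of the oocyte. Probe set 1438992_x_at read 486, 472 and 581 on the SCC arrays. It read 450.3, 351, 626 and 308 on the cytoplast arrays and 402, 617 and 436 on the MII oocyte arrays. The highest and the lowest array were both cytoplasts (SCC over cytoplast log2 0.29, 95% interval -0.21 to 0.79, adjusted p = 0.551), and the sign turned after quantile normalization (-0.03). The probe set 1448135_at read 158 to 186 on SCC arrays, 176 to 202 on cytoplast arrays and 170.2 to 195 on MII oocyte arrays. Its SCC to cytoplast difference was -0.11 (95% interval -0.35 to 0.13, adjusted p = 0.659), a range of ratios from 0.783 to 1.1. The last Atf4 probe set, 1439258_at, read 7.45 to 9.48.

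In all, 9 of the 19 probe sets, from 6 genes, passed the filter on dim probe sets. Leaving out Ppp1r15b, 2 of 8 were higher in SCC than cytoplast and none lower by limma, both of them Eif2ak3, and the other 6 had adjusted p of 0.362 or more. Of the Eif2ak3 probe sets, 1449278_at was kept by the filter only through its SCC arrays, so this count is a description. Over all 23737 probe sets tested, 6.74% were called higher and 0.274% lower in this comparison. With Ppp1r15b, 3 of the 9 had no overlap between SCC and cytoplast arrays, all with the SCC higher, against 13.9% of all probe sets with the SCC higher and 5.89% with it lower. The median log2 difference of the 9 was 0.29, against 0.01 over all probe sets tested and 0.35 over the 14 oocyte markers. Ppp1r15b is one of the 9 and was chosen on this contrast, so nothing is read from the counts that hold it.

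Between the SCC and the MII oocyte, 0 of 8 member probe sets passed by limma, and 3 had an unadjusted p under 0.05. Of the 9, 2 had no overlap with the SCC higher and none with it lower, against 8.71% and 5.34% of all probe sets. Over all probe sets 0.0421% were called higher and 0% lower, and 2871 had an unadjusted p under 0.05. Between the cytoplast and the MII oocyte, 0 of 9 passed and none had an unadjusted p under 0.05. None of the 9 was free of overlap, against 1.89% of all probe sets with the cytoplast higher and 3.83% with it lower. No tested probe set was called there (0% in each direction), and 1054 had an unadjusted p under 0.05. The comparisons share arrays, so their values are not independent of each other.

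**Figure D3:**
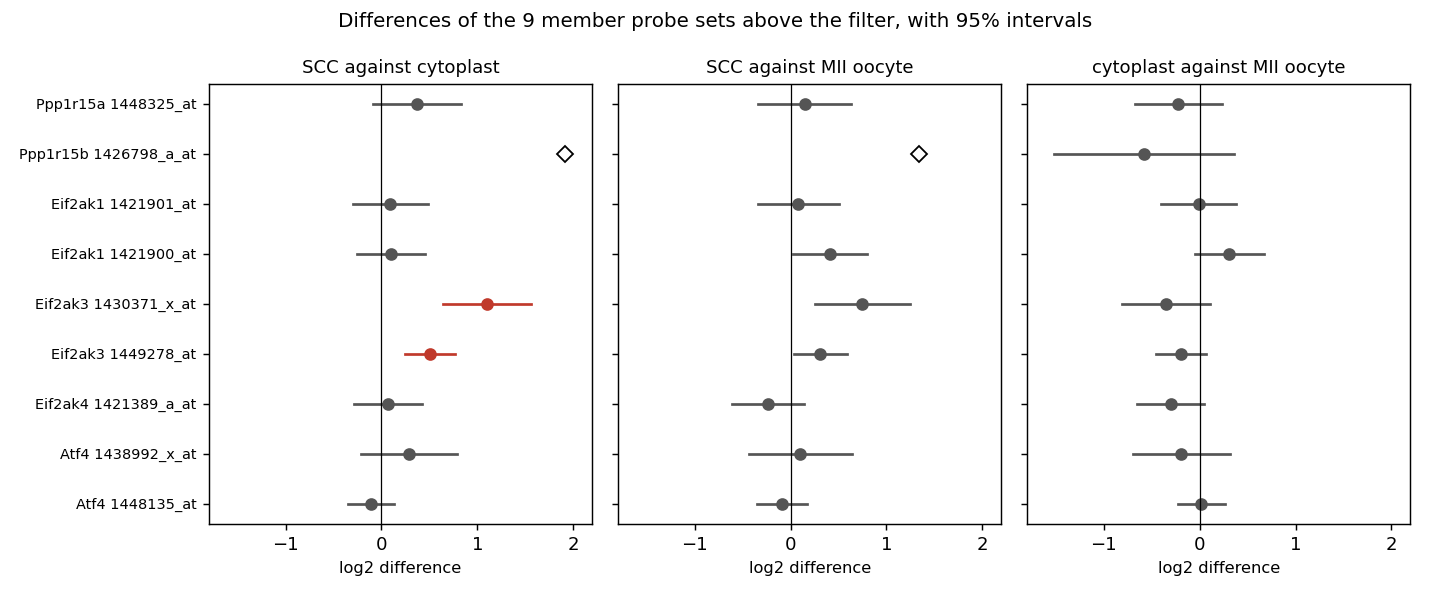
Log2 differences (x axis) of the 9 member probe sets that passed the filter in the 3 comparisons, with 95% intervals from limma; red marks an adjusted p under 0.05, and open diamonds are Ppp1r15b in the contrasts on which it was chosen, shown without an interval. In the SCC to cytoplast panel the 2 probe sets of Eif2ak3 lie at 1.1 and 0.51, and the other tested intervals cross 0.

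Genes around PERK in the ER stress response were examined as a group. Like the other pathway lists below, they were chosen with earlier results of these data known, so the shares of these lists are a description. ER stress is sensed by PERK, by IRE1 (Ern1) and by ATF6, and the response raises chaperones and the machinery that removes misfolded proteins. Of 14 genes listed for the other sensors, chaperones and degradation factors, 7 were higher in SCC than cytoplast and none lower, against 8.02% higher and 0.275% lower over 12713 genes. The 7 include Dnajb9, which passed the filter on dim probe sets only through its SCC arrays. Their median log2 difference was 0.52 (0.24 after cyclic loess), against 0.02 over all genes and 0.35 over the 14 oocyte markers. After cyclic loess 4 of the 14 were higher, against 2.29% of all genes higher and 0.684% lower, and after quantile normalization 5, against 1.9% higher and 0.881% lower. Without SCC replicate 2, as without SCC replicate 3, 2 of the 14 passed, Atf6 and Edem1. Over all 23737 probe sets the higher calls also fell in these fits, from 1599 to 271 and 243.

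Both remaining sensors were among the 7. Atf6, a membrane-bound transcription factor, read 407, 377 and 459.6 on the SCC arrays. It read 166, 173, 200.5 and 210.2 on the cytoplast arrays and 232, 223 and 214 on the MII oocyte arrays. The SCC lay apart from both (2.22-fold over the cytoplast, SE 0.12 on the log2 scale, adjusted p = 0.00234), and against the MII oocyte it was 1.85-fold with adjusted p = 0.0507. Both other probe sets of Atf6 were above background on no array of either group, so no fold is given. Ern1, the kinase and RNase that splices Xbp1 mRNA, read 14817, 17634 and 18006 on the SCC arrays. It read 11009, 9092, 9562 and 12236 on the cytoplast arrays and 12916, 10571 and 14039 on the MII oocyte arrays. This was 1.61-fold over the cytoplast with no overlap (adjusted p = 0.0181), lost after cyclic loess (adjusted p = 0.0633) and without SCC replicate 2 or 3 or cytoplast replicate 1 or 2. Both other probe sets of Ern1 were above background on no cytoplast array, and 1 of them on 1 SCC array.

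The other rises lay in the steps after sensing. Mbtps1 and Mbtps2, the Golgi proteases that release ATF6 from the membrane, were higher, with Mbtps2 at 1349 ± 239.6 on SCC arrays against 745 ± 110.4 on cytoplast arrays (1.81-fold, adjusted p = 0.0107). Mbtps1, above background on a single SCC array and on none of the cytoplasts, passed (adjusted p = 0.0169) with no fold given. Its other probe set was above background on no array of either group. Edem1, which sends misfolded glycoproteins to degradation, was 1.95-fold higher (303 ± 43.4 against 155 ± 12.7, adjusted p = 0.00453). Syvn1, the ubiquitin ligase HRD1 of ER-associated degradation, read 333, 565 and 665 on SCC arrays against 147 to 258 on cytoplast arrays (2.56-fold, adjusted p = 0.0124). Second probe sets of Edem1 and Syvn1 did not pass (adjusted p = 0.452 and 0.149) and were above background on no cytoplast array. Dnajb9, an ER co-chaperone, passed (adjusted p = 0.024) but exceeded background on no array. It was kept by the filter on dim probe sets only through its SCC arrays, so nothing is read from its call. Without SCC replicate 2 or SCC replicate 3, Mbtps1, Mbtps2, Syvn1 and Dnajb9 did not pass, and neither did Mbtps1 without cytoplast replicate 1 or Dnajb9 without SCC replicate 1 or cytoplast replicate 2. Mbtps1 and Mbtps2 also missed the threshold after cyclic loess (adjusted p = 0.0744 and 0.0968) and quantile normalization (adjusted p = 0.0914 and 0.133). The chaperone Hspa5 (BiP) had a log2 difference of 0.09 (adjusted p = 0.721) and Calr of 0.35 (adjusted p = 0.326). Neither passed, although the arrays of Calr did not overlap. Hspa5 was read by a probe set with the suffix x, at 155 to 190, above background on 2 of 3 SCC arrays. The rest of the list did not pass either (adjusted p of 0.386 or more). Xbp1 (log2 -0.26), Hsp90b1 (-0.17) and Sel1l (-0.08) stood lower, and Canx (0.09) and Sdf2l1 (0.003) marginally higher. Xbp1 and Sdf2l1 were above background on no array.

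**Figure D4:**
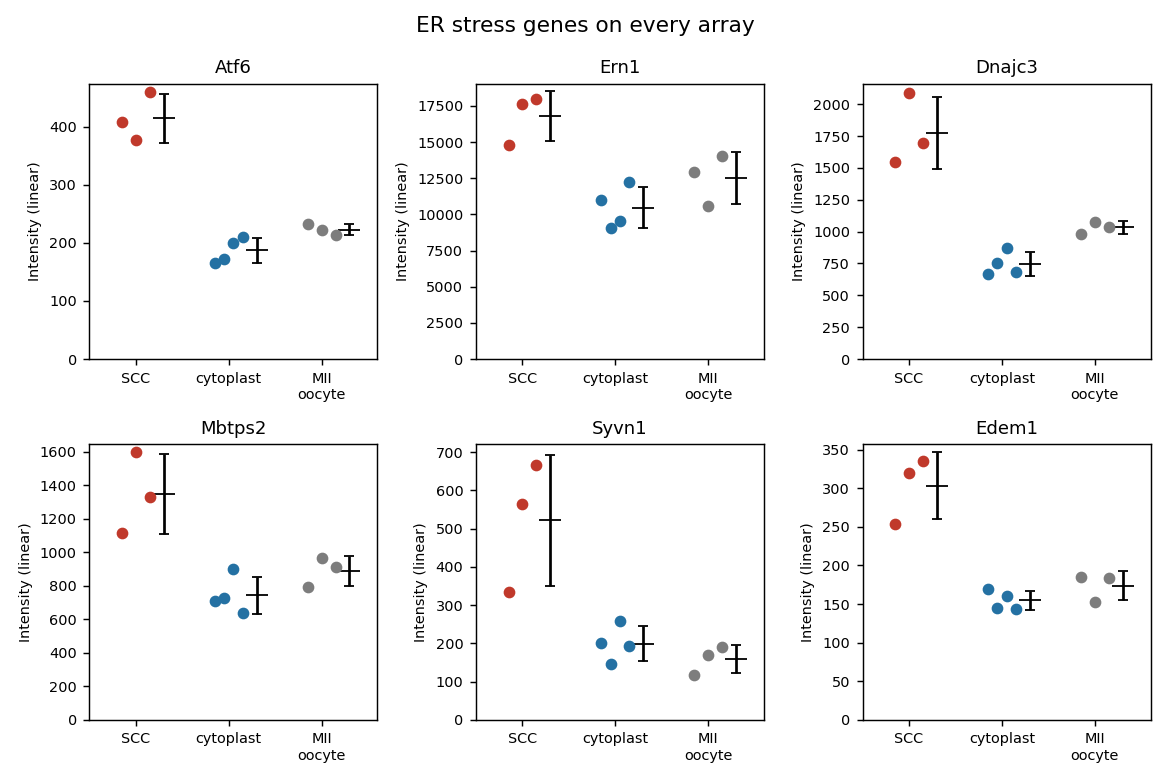
Intensity (linear scale, y axis from 0) of 6 genes of the ER stress response that passed as higher in SCC than cytoplast, 1 point per array, by group; black bars give the mean and SD. The 3 SCC arrays lie above all cytoplast arrays in each panel, for example 377 to 459.6 against 166 to 210.2 for Atf6.

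Among regulators of the kinases and the catalytic subunits of protein phosphatase 1, 1 of 12 genes was higher, a share near the 8.02% of all genes, and none lower (median log2 difference 0.1). It was Dnajc3 (p58IPK), an ER co-chaperone known as an inhibitor of PERK and PKR. Dnajc3 read 1545, 2090.1 and 1693 on the SCC arrays, and 669.7, 758, 875 and 684 on the cytoplast arrays. On the MII oocyte arrays it read 983, 1079 and 1035. The SCC lay apart from both (2.37-fold over the cytoplast, SE 0.14 on the log2 scale, adjusted p = 0.00234; 1.71-fold over the MII oocyte, adjusted p = 0.075). Its 4 other probe sets did not pass. The only one of these above background on all SCC and cytoplast arrays stood at 1.49 times the cytoplast (adjusted p = 0.0959). The other 3 were above it on no SCC array. Of these 3, 1 went the other way, with every SCC array below every cytoplast array (log2 -0.59, adjusted p = 0.258). It was above background on 2 of 4 cytoplast arrays. The remaining ones had log2 differences of 0.55 and 0.32 and were above background on no cytoplast array. The phosphatase subunits that PPP1R15 proteins recruit did not pass: Ppp1ca had a log2 difference of 0.02 (adjusted p = 0.96), Ppp1cb of 0.47 (adjusted p = 0.298) and Ppp1cc of 0.22 (adjusted p = 0.384).

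Of 12 genes of eIF2, its exchange factor eIF2B and partner initiation factors, 3 were higher, against 8.02% of all genes, and none lower (median log2 difference 0.13). Eif5b, which joins the ribosomal subunits, was 2.63-fold higher (301 ± 71.7 against 114 ± 22.2, adjusted p = 0.00373), and another probe set of it was 2.17-fold higher (adjusted p = 0.0366). Eif1b, a paralogue of the start-codon factor Eif1, was 2.45-fold higher (2486 ± 441 and 1008 ± 92.4, adjusted p = 0.00637). Eif2b1, the alpha subunit of eIF2B, was 1.79-fold higher (adjusted p = 0.0448) with overlapping arrays, since cytoplast replicate 4 at 807 exceeded SCC replicate 1 at 784. It missed the threshold in 12 of the 19 other settings, among them cyclic loess (adjusted p = 0.166). The other eIF2B subunits in the list did not pass. Eif2b2 stood lower (log2 -0.64, adjusted p = 0.167), with every SCC array below every cytoplast array. Eif2b3 had a log2 difference of -0.03 (adjusted p = 0.928). Eif2b4, above background on no SCC or cytoplast array, had one of 0.2 (adjusted p = 0.438). The eIF2 subunits Eif2s2 (log2 0.28, adjusted p = 0.264) and Eif2s3x (log2 -0.12, adjusted p = 0.821) did not pass.

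Of 22 measured genes that ATF4 is known to switch on, 1 was higher in the SCC, against 8.02% of all genes, and none lower, with log2 differences from -0.37 to 0.97 and a median of -0.05. On no array were 11 of the 22 above background, and the other 11 had a median of 0.23 with 8 positive. Cth, the cystathionine lyase that makes cysteine, was 1.96-fold higher (445 ± 60.5 against 228 ± 33.1, adjusted p = 0.0143) and missed the threshold after cyclic loess (adjusted p = 0.095), after quantile normalization (adjusted p = 0.12), without SCC replicate 2 or 3 and without cytoplast replicate 1. Slc3a2, a subunit of amino acid transporters, did not pass (log2 0.88, adjusted p = 0.0857). Ddit3, the stress factor CHOP, exceeded background on no SCC or cytoplast array (log2 -0.07, adjusted p = 0.907), and neither did Atf3, Trib3 and Asns, none of which passed.

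**Figure D5:**
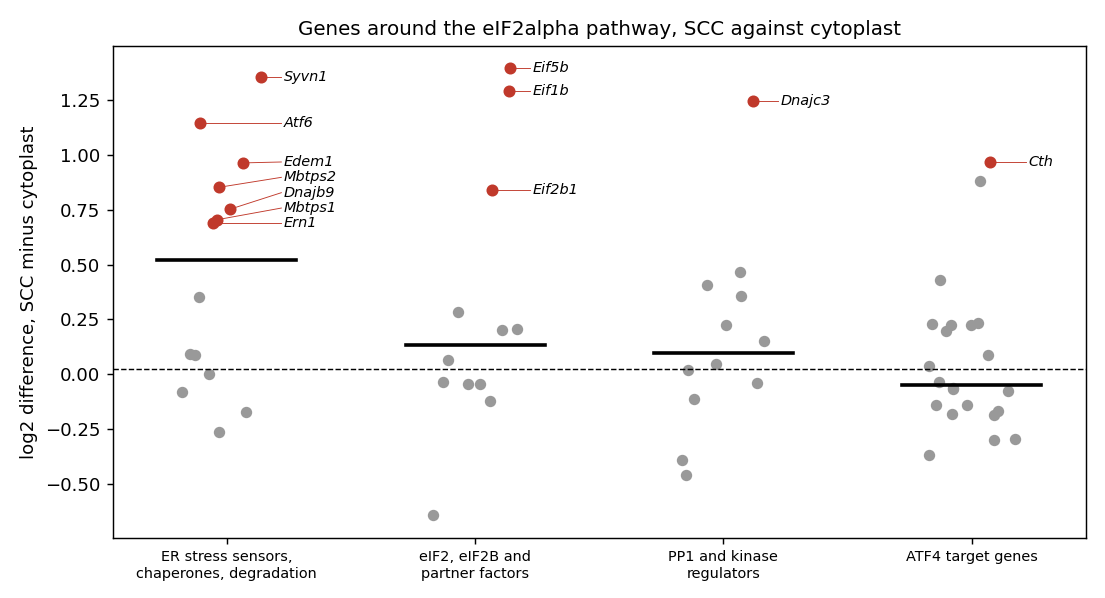
Log2 difference between SCC and cytoplast (y axis) for each measured gene of 4 gene lists, 1 point per gene; red points have an adjusted p under 0.05, black bars are list medians and the dashed line is the median of all genes. The median is 0.52 for the ER stress list and between -0.05 and 0.13 for the other 3. The lists were chosen with earlier results of these data known.

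Of the 12 genes named from these 4 lists, 5 passed under all 19 other settings: Eif5b, Eif1b, Dnajc3, Atf6 and Edem1. None of the 12 passed for SCC against MII oocyte (adjusted p of 0.0507 or more), where 0.0472% of all genes were higher and 0% lower, or between cytoplast and MII oocyte. Without MII oocyte replicate 3, 7 of the 12 passed for SCC against MII oocyte: Eif5b, Eif1b, Dnajc3, Cth, Atf6, Edem1 and Syvn1. With the spike control level as a covariate 6 passed, and with the replicate block 4. Atf6 also passed with no filter, with a pseudocount of 16 and without cytoplast replicate 4, and Syvn1 without SCC replicate 1.

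The genes whose levels followed Ppp1r15b most closely over the 10 arrays were, by Pearson correlation of log2 values, Tm2d1 (r = 0.983), Dnmt1 (0.979), Psma2 (0.979), Rpp25l (0.976, above background on no array) and Atp6v1g1 (0.973). Dnmt1, the maintenance DNA methyltransferase, read 1962, 2397 and 3419 on SCC arrays, 742 to 1835.5 on cytoplast arrays and 770.1 to 1633 on MII oocyte arrays. Tm2d1 read 277, 436 and 486 on SCC arrays, 68.4 to 158 on cytoplast arrays and 66.2 to 230.1 on MII oocyte arrays. Cytoplast replicate 4 was the highest cytoplast array and MII oocyte replicate 2 the lowest MII oocyte array for both, as for Ppp1r15b. Of 12712 genes compared, 191 had r above 0.9, and for Eif2ak3 it was 0.789. The arrays share their groups and array-wide brightness, so these values are a description.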

How the data were processed

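Per the labels' protocols, at most 50 ng of RNA was amplified in 2 rounds, and each array received 10 µg of cRNA. The deposited values are linear intensities of 45101 probe sets. RMA is named in the submitters' processing notes; settings are not given in the sources. Although the tests were planned for log2 values, the table was linear and was log2-transformed. Beside 64 controls, the annotation pairs 34945 probe sets with 1 gene, 932 with more than 1, and leaves 9160 unnamed. 34741 matched the RefSeq gene table (GRCm38.p6) by gene ID, used for names only.

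Probe sets were kept if above the array median on at least 3 arrays (23737). Differences were fitted with limma 3.58.1 in R 4.3.3, 1 mean per group over all 10 arrays, with Benjamini-Hochberg adjustment over all kept probe sets and a threshold of 0.05. The method was tested on simulated data. A gene is represented by its brightest kept probe set. Folds are powers of 2 of log2 differences, and means ± SD are of linear intensities.

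Named were all members, pathway genes past the threshold, the 2 smallest p of a list with none, and the 5 genes most like Ppp1r15b; other genes were named after their values were seen. Members and lists were chosen with earlier results of these data known. In the lists of oocyte markers, cumulus cell markers and other tissues, 2 of 14, 0 of 11 and 0 of 24 genes were higher in SCC than cytoplast, and none lower.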

Additional observations from a re-analysis of the deposited data

How the results depend on the processing

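Of 968 alternative values of the members and named pathway genes, 873 kept their direction and side of the threshold, 45 no longer passed, 23 newly passed and 27 changed sign, all 27 among values that had not passed. Counts over the members: 2 probe sets were higher in SCC than cytoplast, but 1 with the 75th percentile filter (1449278_at was not in that fit), 1 after quantile normalization, 1 with the replicate block (1449278_at lost) and 0 to 2 with an array left out. Against the MII oocyte it was 0 to 1. The 7 of the ER stress list became 4 after cyclic loess and 2 to 7 with an array left out. Same-numbered arrays had residual correlations of -0.3 to 0.61 over 8 pairs, 2 of them above 0.1, and 3 of 10 arrays correlated best with their own number, so the numbers were not taken as pairs.

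Signs turned for SCC against cytoplast after cyclic loess and quantile normalization for Eif2ak1 1421901_at (-0.0725 and -0.11; -0.00498 to 0.26 with an array left out), 1421900_at (-0.0038 and -0.0395; -0.0377 to 0.24) and Eif2ak4 (-0.22 and -0.22; -0.0653 to 0.22), and after quantile normalization for Atf4 1438992_x_at (-0.0319). For SCC against MII oocyte they turned for Eif2ak1 1421901_at after quantile normalization (-0.0162), for Atf4 1438992_x_at after quantile normalization (-0.0502), with the replicate block (-0.0206) and with an array left out (-0.0221 to 0.29), and for Ppp1r15a with an array left out (-0.0944 to 0.28). For cytoplast against MII oocyte they turned for Eif2ak1 1421901_at after cyclic loess (0.0947), quantile normalization (0.0946), with the replicate block (0.0227), the spike covariate (0.061) and an array left out (-0.18 to 0.0876), and for Atf4 1448135_at with the replicate block (-0.0137) and an array left out (-0.0421 to 0.057). The cause was not tested.

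Over all probe sets, calls for SCC against cytoplast were 1599 higher and 65 lower, 505 and 121 after cyclic loess, 418 and 154 after quantile normalization, 2767 and 293 with the spike covariate, and 243 to 2044 and 1 to 191 with an array left out. Lower calls were also 185 with the pair of groups alone, 110 with the replicate block and 43 with a pseudocount of 16. For SCC against MII oocyte, 10 higher and 0 lower calls became 125 and 14 with the replicate block and 296 and 15 with the spike covariate. The higher calls were 0 with the pair of groups alone, 16 with no filter, 25 with the pseudocount, 6 after quantile normalization and 0 to 444 with an array left out (lower 0 to 253). Probe sets near background limit what can be said of Ppp1r15a, Eif2ak2 and the cytoplast level of Eif2ak3.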
